A study of Mus musculus with 6 samples.

Results

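The genes described here encode the protein subunits of the mitochondrial respiratory chain and of ATP synthase. They were chosen by symbol in the array's annotation, as all genes whose symbol starts with Nduf, Uqcr, Atp5 or Cox followed by 4, 5, 6, 7 or 8, together with Sdha, Sdhb, Sdhc, Sdhd, Cyc1 and Cycs. This gave 89 of the 19057 genes named on the array, measured by 139 of its 45281 probes. The symbols fall into complex I (44 genes), complex II (4), complex III (8), complex IV (16), complex V (16) and cytochrome c (1). The rule also takes in 8 assembly factors of complex I, 1 pseudogene (Ndufs5-ps) and Ndufa4, whose protein is now placed in complex IV.

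The respiratory chain lies in the inner mitochondrial membrane. Complexes I and II pass electrons from NADH and succinate to coenzyme Q, complex III passes them on to cytochrome c, and complex IV hands them to oxygen. Complexes I, III and IV pump protons as they work, and complex V, the ATP synthase, uses the proton gradient to make ATP. A few subunits are encoded by mitochondrial DNA, and all genes chosen here are nuclear. Tumour cells differ in how far they rely on this chain and how far on glycolysis.

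ID8 and ID8-M cells were compared on 1 bead chip with 3 arrays each. ID8 is a mouse ovarian epithelial cancer line of the C57BL/6 strain. ID8-M was derived from it: parental cells were placed in the peritoneal cavity of female C57BL/6 mice aged 8 weeks, ascites cells were taken 12 weeks later, and clones were picked after 4 days in a dish and passaged into a line. Both lines were grown in the same high-glucose medium with 4% serum, insulin, transferrin and selenite, and neither received a treatment. ID8-M is a single derived line, and how many clones or mice it comes from is not stated. Parental samples lay at chip positions A to C and ID8-M samples at D to F, so position and line cannot be told apart. Nothing says that the 3 samples of a line came from separate cultures, so p-values measure the spread between these samples, which may be technical.

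Between 16386 and 17186 probes were detected per array. Keratins of simple epithelia (Krt7, Krt8, Krt18, Krt19) were detected on all 6 arrays, whereas Epcam was not detected on any. Of 9 macrophage markers with a probe, 8 were not detected on any array, among them Ptprc, Adgre1 and Csf1r, and the exception was Cd14. Some markers of other cell types differed between the lines: 1 of 6 endothelial markers was tested, Pecam1, detected on 3 ID8-M and 0 parental arrays, with a signal of 24.5 to 30.1 units in parental ID8 and 59.0 to 67.8 in ID8-M, while Cdh5, Erg and Tie1 were not detected. Of 7 fibroblast markers 2 were tested, Dcn, called higher (0.61), and Col1a1, not called (−0.10, limma adjusted p = 0.776), with a summed signal of 4450 to 4801 in parental ID8 and 6949 to 7162 in ID8-M, and Pdgfra, Pdgfrb, Lum, Thy1 and Col1a2 were not detected. The summed signal of the 5 tested epithelial markers was 18153 to 19924 units in parental ID8 and 29339 to 30984 in ID8-M, with 4 called higher and Cdh1 lower. That of 4 tested ovarian surface and mesothelial markers was 9442 to 10174 and 14363 to 15865, with 2 called higher, Upk3b and Lrrn4. Lrrn4 was detected on 3 ID8-M and 0 parental arrays, so it entered the test only through the line where it was higher. Cd14 was lower, at 433 to 501 and 334 to 375 units. The part of these cell types in the results below was not tested.

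Most subunit genes of the respiratory chain differed little between ID8-M and parental ID8, and those that changed did so by less than 2-fold. Of the 79 members that could be tested, 6 were higher and 7 lower in ID8-M (limma, Benjamini-Hochberg adjusted p under 0.05), which is 16.5% of them, against 30.8% of all 8933 tested genes. The higher genes were Ndufa6, Ndufb9, Cyc1, Cox6c, Cox7a1 and Atp5g2, and the lower ones Ndufb7, Ndufaf5, Ndufa1, Ndufa13, Ndufaf3, Ndufs5-ps and Cox7b. The difference is that of log2 intensity, ID8-M minus ID8, where 1 is 2-fold. The median over the 79 members was −0.04, that over all tested genes −0.03, and the median size was 0.09 among members and 0.20 among all tested genes. None of the members reached 2-fold, which 5.29% of all tested genes did with a call. The arrays of the lines did not overlap for 31 members (39.2%), 12 higher and 19 lower, against 48.4% of all tested genes. As each array averages over a culture, a lower amount per cell and fewer cells with the RNA cannot be told apart.

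The share of called genes was lower among bright probes in general. Among the 702 tested genes with a mean signal at or above the members' median, a comparison added after the values were seen, 20.2% were called and the median size of the difference was 0.12. Members dimmer than their own median lie outside this set, so it is not matched in signal to all 79 members. The 95% interval of the difference lay within ±0.5 for 66 of the 79 members and within ±1 for 77. The count of calls depended on single arrays: it was 6 without parental array 1 or without ID8-M array 1, 8 without parental array 2 or ID8-M array 3, and 9 without either remaining array. The share of all tested genes called fell as well, to between 22.8% and 25.6%, against 7.59% to 11.4% of the members. The gap to all genes also depended on the detection filter. Without it, 10 of 89 members were called, 11.2% against 12.1% of all genes, detected or not.

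**Figure D1:**
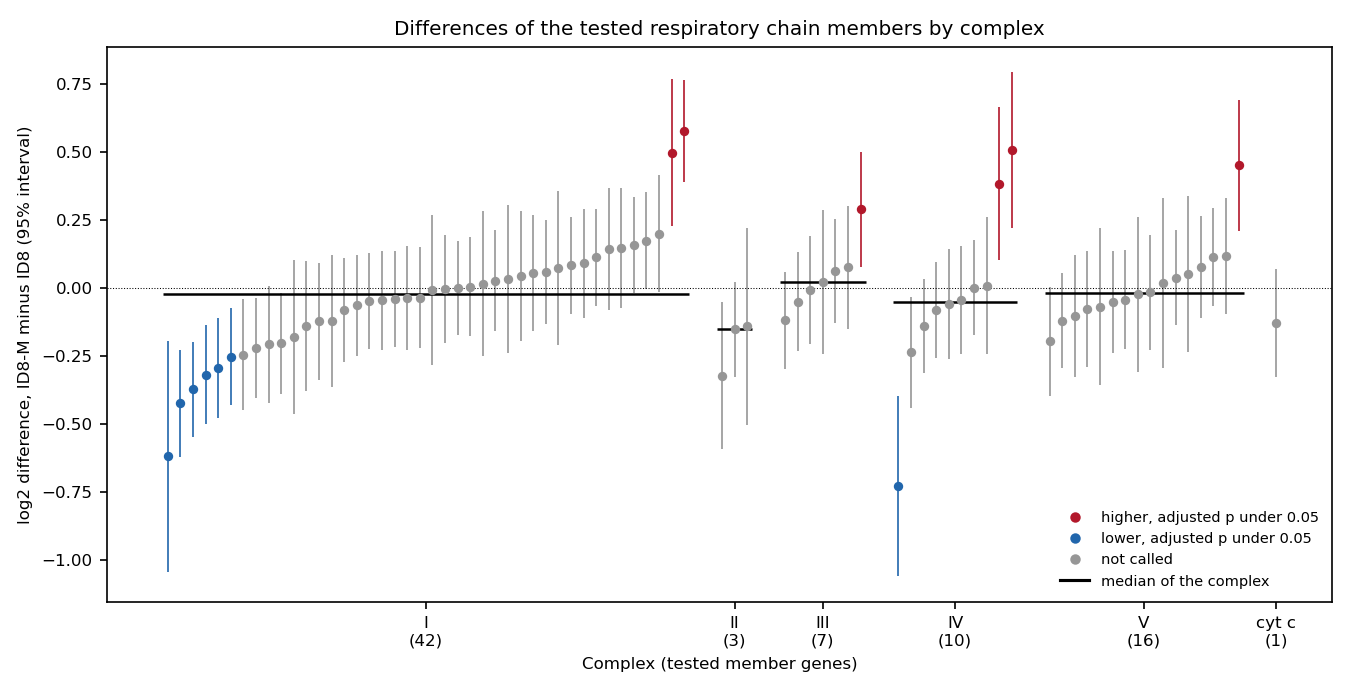
Difference of log2 intensity (ID8-M minus ID8) of each of the 79 tested members, grouped by complex and sorted within it; points are estimates, vertical bars 95% intervals from the limma fit, horizontal lines the median of a complex. The 6 genes called higher and 7 called lower stand at the ends, and the medians of complexes I, III, IV and V lie between −0.05 and 0.02.

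The complexes differed little in their medians. The median difference was −0.02 over 42 tested members of complex I, −0.15 over 3 of complex II, 0.02 over 7 of complex III, −0.05 over 10 of complex IV and −0.02 over 16 of complex V. Calls numbered 8 in complex I (2 higher, 6 lower), 0 in complex II, 1 in complex III (higher), 3 in complex IV (2 higher, 1 lower) and 1 in complex V (higher). As shares these are 19%, 0%, 14.3%, 30% and 6.25%, against 30.8% of all tested genes, so that of complex IV lay near the share of all genes. Differences between these shares were not tested, since members are not replicates. Averaged over its members, complex III had a mean log2 signal of 11.746, 11.772 and 11.805 on the parental arrays and 11.803, 11.803 and 11.832 on the ID8-M arrays, and the ranges just overlapped. Complex II averaged 10.06, 10.07 and 10.04 on the parental arrays and 9.72, 9.82 and 10.00 on the ID8-M arrays, all of the latter lower. The arrays of the lines also overlapped for the averages of complexes I, IV and V.

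**Figure D2:**
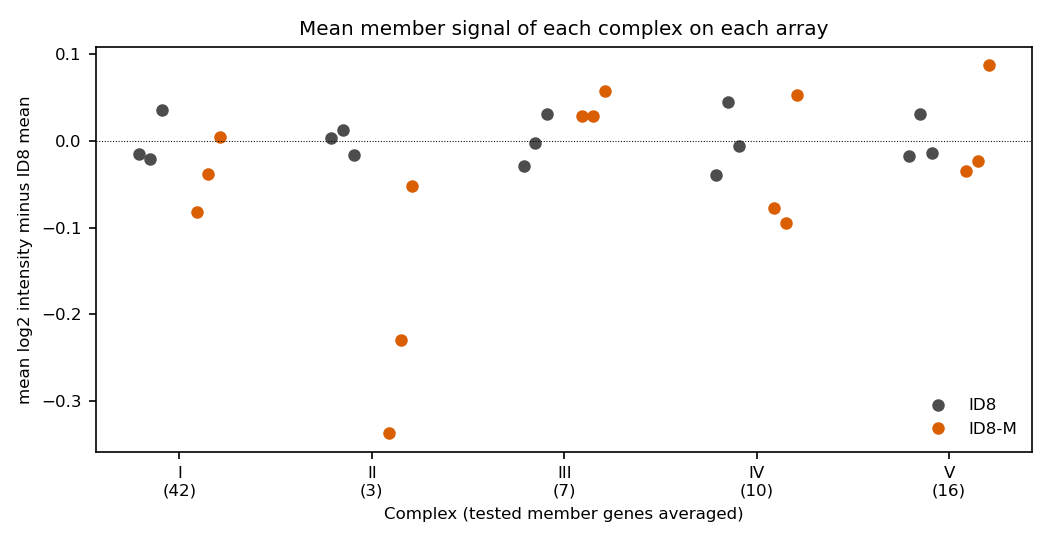
Mean log2 intensity of the tested members of each complex on each array, as the difference from the mean of the 3 parental arrays of that complex; grey points are parental ID8 and orange points ID8-M, 3 arrays each. Complex II stood lowest in ID8-M and was also the most spread there, with 3 members.

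The catalytic core of complex I was not changed by this test. Of its 6 nuclear-encoded core subunits on the array, 5 were tested and 0 called by limma, 0 also at an unadjusted p under 0.05, with differences from −0.05 to 0.17. Ndufv1, which binds NADH, measured 13.24, 13.09 and 13.20 on the parental arrays and 13.20, 13.24 and 13.07 on the ID8-M arrays. These ranges overlapped, and the difference was 0.00 with a 95% interval from −0.20 to 0.20. Ndufs1, the largest core subunit, was not detected on any array by its single probe, so no difference can be given for it.

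Among the 28 tested accessory subunits of complex I, 2 were higher and 3 lower in ID8-M (17.9% called against 30.8% of all tested genes). Ndufa6, which with Ndufb9 belongs to the LYR family of small proteins in this complex, had a log2 intensity of 12.00, 12.04 and 12.17 on the parental arrays and 12.66, 12.62 and 12.65 on the ID8-M arrays. All ID8-M arrays lay above all parental arrays, and the difference of 0.58 ± 0.08 (SE, n = 3 per line, limma adjusted p = 0.00132) is a 1.49-fold rise. Ndufb9 measured 9.20, 8.91 and 9.05 on the parental arrays and 9.46, 9.43 and 9.75 on the ID8-M arrays, again without overlap, and rose by 0.50 ± 0.12 (limma adjusted p = 0.0155). Without parental array 2 its call was lost (limma adjusted p = 0.0536).

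The accessory subunits that fell were Ndufb7, Ndufa1 and Ndufa13. Ndufb7, a subunit of the membrane arm, measured 9.03, 9.02 and 9.20 on the parental arrays and 8.66, 8.61 and 8.71 on the ID8-M arrays and fell by 0.43 ± 0.09 (limma adjusted p = 0.00766). Ndufa1, a small X-linked subunit, measured 12.42, 12.43 and 12.38 on the parental arrays and 12.01, 12.14 and 12.11 on the ID8-M arrays and fell by 0.32 ± 0.08 (limma adjusted p = 0.0186). Ndufa13, also known as GRIM-19, measured 13.35, 13.33 and 13.35 on the parental arrays and 12.96, 13.11 and 13.07 on the ID8-M arrays and fell by 0.30 ± 0.08 (limma adjusted p = 0.0267). In all 3 genes the lines did not overlap, and the parental arrays of Ndufa13 lay within 0.02 of each other. The Ndufa1 call was lost without parental array 1 or 2 or ID8-M array 1 (limma adjusted p up to 0.0592). The Ndufa13 call was lost without any single array other than ID8-M array 2 (up to 0.0791).

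Assembly factors of complex I, which help build it and are not part of the finished complex, included 2 falls and 0 rises among 7 tested. That is 28.6% called, near the 30.8% of all tested genes. Ndufaf5, which modifies an arginine of a core subunit in human cells, measured 8.56, 8.63 and 8.55 on the parental arrays and 8.18, 8.21 and 8.23 on the ID8-M arrays and fell by 0.37 ± 0.08 (limma adjusted p = 0.00772). For its second tested probe the difference was −0.12, with an adjusted p of 0.489 by limma. Ndufaf3, an early assembly factor, measured 7.04, 6.63 and 6.43 on the parental arrays and 6.25, 5.75 and 6.24 on the ID8-M arrays and fell by 0.62 ± 0.19 (limma adjusted p = 0.0383). That signal was dim and scattered more than for most members, the difference was −0.24 without background correction, and the call was lost without any single array other than parental array 3 (limma adjusted p up to 0.107). Ndufaf4, the partner of Ndufaf3, had a difference of −0.22 for the brightest of its probes, not called (limma adjusted p = 0.0731), while its second probe was called lower (−0.49, limma adjusted p = 0.0091). Ndufaf6 was not detected.

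The probe annotated to Ndufs5-ps measured 10.28, 10.39 and 10.36 on the parental arrays and 10.10, 10.12 and 10.05 on the ID8-M arrays, and fell by 0.25 ± 0.08 (limma adjusted p = 0.0422). RefSeq lists this locus as a transcribed pseudogene, so signal may be shared with its parent gene and the assignment is uncertain. Leaving out any single array ended that call (limma adjusted p up to 0.114). Ndufa4 differed by 0.08, with a 95% interval from −0.10 to 0.26.

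Succinate dehydrogenase, complex II, also works in the citric acid cycle, and its 3 tested subunits all had negative differences, none of them called (limma, 1 at an unadjusted p under 0.05). Sdhb, the iron-sulfur subunit, measured 10.35, 10.17 and 10.09 on the parental arrays and 9.84, 9.72 and 10.09 on the ID8-M arrays. The highest ID8-M array lay just under the lowest parental array, and the difference of −0.32 ± 0.12 missed the threshold (limma adjusted p = 0.0742). It passed in 6 of 17 alternative settings, among them without background correction (limma adjusted p = 0.015) and without ID8-M array 3, the array nearest to the parental level, where the difference was −0.43. The membrane anchors Sdhc and Sdhd differed by −0.15 and −0.14, with 95% intervals from −0.33 to 0.02 and from −0.50 to 0.22. Sdha, the flavoprotein, was not detected on any array by its single probe.

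In complex III, Cyc1 was called higher and the 6 other tested members were not called. Cyc1 encodes cytochrome c1, which passes electrons to cytochrome c, and measured 11.56, 11.82 and 11.73 on the parental arrays and 11.95, 12.04 and 11.99 on the ID8-M arrays. The lines did not overlap, and the difference was 0.29 ± 0.09, just past the threshold (limma adjusted p = 0.048). Leaving out any single array other than parental array 2 ended the call (limma adjusted p up to 0.145). The other core and accessory subunits ranged from −0.12 for Uqcrh, the hinge protein, to 0.08 for Uqcrc2, a core protein. Neither probe of Uqcrfs1, the Rieske iron-sulfur protein, was detected. Cycs, the mobile cytochrome c, differed by −0.13 with a 95% interval from −0.33 to 0.07 by its brightest probe, and 1 of its 2 dimmer probes was called lower (−0.38, limma adjusted p = 0.0183).

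Complex IV held the largest fall and a rise of a tissue-type isoform. Cox7b, a small structural subunit, measured 7.22, 7.53 and 7.18 on the parental arrays and 6.63, 6.32 and 6.80 on the ID8-M arrays. No ID8-M array reached the lowest parental value, and the fall of 0.73 ± 0.14 is 1.66-fold (limma adjusted p = 0.00699). Its signal was dim, and the difference was −0.35 without background correction, still called. Cox7a1, the isoform of subunit 7a known from heart and skeletal muscle, measured 7.25, 7.51 and 7.43 on the parental arrays and 7.70, 7.89 and 8.12 on the ID8-M arrays. All ID8-M arrays were higher, and the rise was 0.51 ± 0.12 (limma adjusted p = 0.0179), lost without parental array 1 or ID8-M array 3 (limma adjusted p up to 0.0615). Cox7a2, the widely expressed isoform, differed by −0.05 with a 95% interval from −0.24 to 0.15.

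Cox6c, another small subunit, measured 11.89, 12.30 and 11.91 on the parental arrays and 12.48, 12.33 and 12.44 on the ID8-M arrays. The second parental array lay 0.03 under the lowest ID8-M array, and the difference was 0.38 ± 0.12 (limma adjusted p = 0.0486). The call held without parental array 2 and was lost without any other single array (limma adjusted p up to 0.14). Cox4i1, the main isoform of subunit 4, measured 13.68, 13.53 and 13.72 on the parental arrays and 13.32, 13.42 and 13.46 on the ID8-M arrays, without overlap. The difference of −0.24 ± 0.09 was not called (limma adjusted p = 0.0805) and passed in 4 of 17 alternative settings. Cox6a1, Cox6b1 and Cox7a2l, the last a factor of supercomplex assembly, differed by 0.00, 0.01 and −0.06. Of 7 tissue-type isoforms on the array, Cox7a1 alone was tested: Cox4i2, Cox6b2, Cox7b2, Cox8b and Cox8c were not detected on any array, and Cox6a2 was detected on 1 array of each line.

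ATP synthase, complex V, had 1 called gene among 16. Atp5g2, 1 of the genes for the subunit c of the rotating membrane ring, measured 10.89, 11.11 and 11.19 on the parental arrays and 11.61, 11.40 and 11.52 on the ID8-M arrays. All ID8-M arrays were higher, and the rise was 0.45 ± 0.10 or 1.37-fold (limma adjusted p = 0.0143). Without ID8-M array 1 the limma adjusted p was 0.0504. Atp5g3, a second gene of the same subunit, differed by −0.04 with a 95% interval from −0.23 to 0.14. The interval of Atp5g2 began at 0.21, but the difference between both genes was not tested.

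The 5 tested subunits of the F1 head, where ATP is formed, were not called (limma, 0 at an unadjusted p under 0.05), with differences from −0.12 to 0.04. Atp5b, the catalytic beta subunit, measured 14.79, 14.78 and 14.75 on the parental arrays and 14.83, 14.75 and 14.85 on the ID8-M arrays, overlapping ranges with a difference of 0.04. Atp5a1, the alpha subunit, differed by −0.10 by its brightest probe. Its dim second probe was detected on 3 parental arrays and 1 ID8-M array, so it entered the test only through the line where it was higher, and its difference is not used here. The 4 stalk subunits ranged from −0.07 to 0.12 and the 5 small membrane subunits from −0.20 to 0.11, again with 0 calls. Atp5pb, the stalk subunit b, differed by −0.05 by its brightest probe, and the dimmest of its 4 probes was called higher (0.27, limma adjusted p = 0.043).

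**Figure D3:**
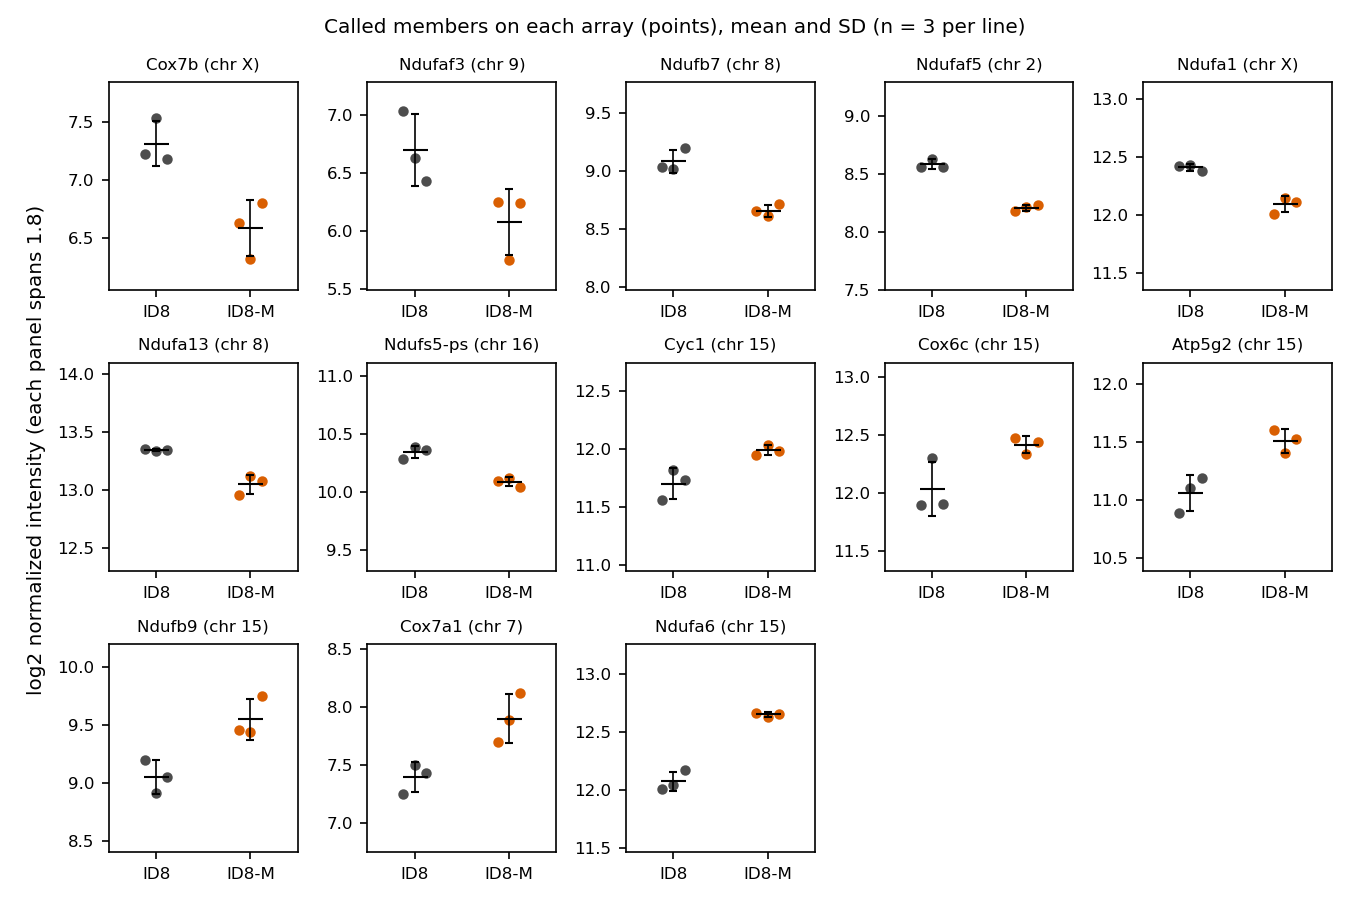
Log2 normalized intensity of the 13 called members on each of the 6 arrays, from the largest fall (Cox7b) to the largest rise (Ndufa6); grey points are parental ID8, orange points ID8-M, black bars the mean and SD of 3 arrays, and every panel spans the same height. In no panel do the points of the lines overlap, which is no separate support, as the genes were chosen by their calls.

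Repeated probes of a gene mostly gave similar differences, but no call was repeated by a second probe. Of 24 members with more than 1 tested probe, 19 had no call by any of them. The median range between the probes of a gene was 0.09. The 5 exceptions were Atp5a1, Atp5pb, Cycs, Ndufaf4 and Ndufaf5, where a probe was called and another was not, and no gene had calls in both directions. The called probe of Atp5a1 is the one that entered through the parental line alone. Over all 112 tested member probes, 7 were called higher and 10 lower, 15.2% against 28.4% of all tested probes. Of the 13 called genes only Ndufaf5 had a second tested probe. Called members rested on at least 19 beads per array, with a bead standard error of at most 8.27% of the signal.

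The called members were not spread evenly over the genome. All 5 tested members on chromosome 15 were called higher (Ndufa6, Ndufb9, Cyc1, Cox6c and Atp5g2), where 55.5% of all 380 tested genes were higher and the chromosome's median difference was 0.36. On chromosome 8, 2 of 3 were called lower (Ndufb7 and Ndufa13, with Cox4i1 not called), where 47.5% of 491 tested genes were lower and the median was −0.31. On chromosome X, 2 of 3 were lower (Cox7b and Ndufa1), where 39.3% of 272 genes were lower and the median was −0.29, and Ndufb11 was not called (−0.01). Of the 68 members on other chromosomes 4 were called, which is 5.88%, against 27.6% of all tested genes of those chromosomes. These 3 chromosomes were singled out after their values were seen. Positions and chromosomes are those of the RefSeq annotation of GRCm38.p6.

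On chromosome 4, whose median was −0.19, all 4 tested members (Sdhb, Ndufaf4, Ndufb6 and Uqcrh) had negative differences from −0.32 to −0.12, none of them called. On 7 chromosomes the median of the other tested genes was at least 0.1 away from 0, and 20 of the 22 members there had the sign of that median. Chromosomes 15, 8 and X hold 11 of these 22, all of that sign, and on the other 4 chromosomes it was 9 of 11, with 2 of 4 on chromosome 19. Across the 79 members, the difference correlated with the median of the other tested genes of the same chromosome (Pearson r = 0.73, Spearman rho = 0.65). Over the 68 members off chromosomes 15, 8 and X, r was 0.41 and rho 0.50. This is a description across genes, which share arrays and chromosomes and are not independent replicates.

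**Figure D4:**
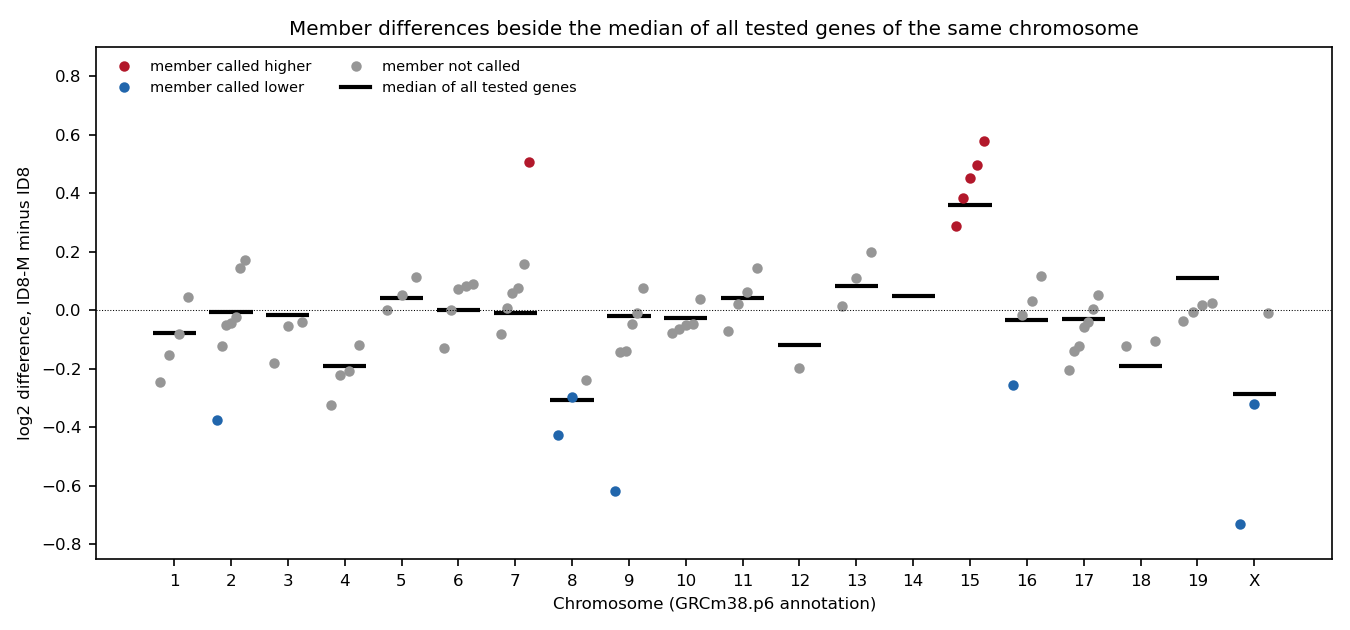
Difference of log2 intensity of the 79 tested members by chromosome (points) beside the median difference of all tested genes of that chromosome (black bars). The 5 members on chromosome 15 lie from 0.29 to 0.58 around a chromosome median of 0.36, and those on chromosomes 8 and X around medians of −0.31 and −0.29, with Ndufb11 near 0.

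The 5 genes on chromosome 15 lie far apart. Cox6c begins at 35931976, Ndufb9 at 58933801, Cyc1 at 76343513, Ndufa6 at 82350139 and Atp5g2 at 102662868. Among the other tested genes within 5 Mb of each, the median difference was 0.25 around Cox6c (33 genes), 0.37 around Ndufb9 (22), 0.41 around Cyc1 (106), 0.43 around Ndufa6 (98) and 0.37 around Atp5g2 (79). Between 31.8% and 68.9% of these neighbours had a difference at least as high as the member. Around Cox7b the median of 21 neighbours was −0.28, and 19% of them fell at least as far. Around Ndufaf3 on chromosome 9, in contrast, the median of 78 neighbours was −0.03, and 2.56% fell at least as far. Around Cox7a1 on chromosome 7 the median of 90 neighbours was 0.12, above the chromosome's median of −0.01, and 18.9% rose at least as far. For Ndufaf5 on chromosome 2 the median of 13 neighbours was −0.07, and 7.69% fell at least as far.

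When the chromosome's median difference was subtracted from each probe, 2 of the 13 calls were kept, and no other member was called. These are 2.53% of the tested members, against 24.3% of all genes in that setting. These were the fall of Ndufaf5 on chromosome 2 (−0.37, limma adjusted p = 0.00969) and the rise of Cox7a1 on chromosome 7 (0.52, limma adjusted p = 0.019). Cox7b kept −0.44 and Ndufaf3 −0.60, just past the threshold on the other side (limma adjusted p = 0.0606 and 0.0503). Ndufa6 kept 0.22 of 0.58, Ndufb9 0.14 of 0.50, Atp5g2 0.09 of 0.45 and Cox6c 0.02 of 0.38, while Cyc1 went to −0.07. Ndufb7 kept −0.12 and Ndufa1 −0.03, and Ndufa13 went to 0.01. The part of the chromosome-wide shifts in the calls of single genes was not tested.

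**Figure D5:**
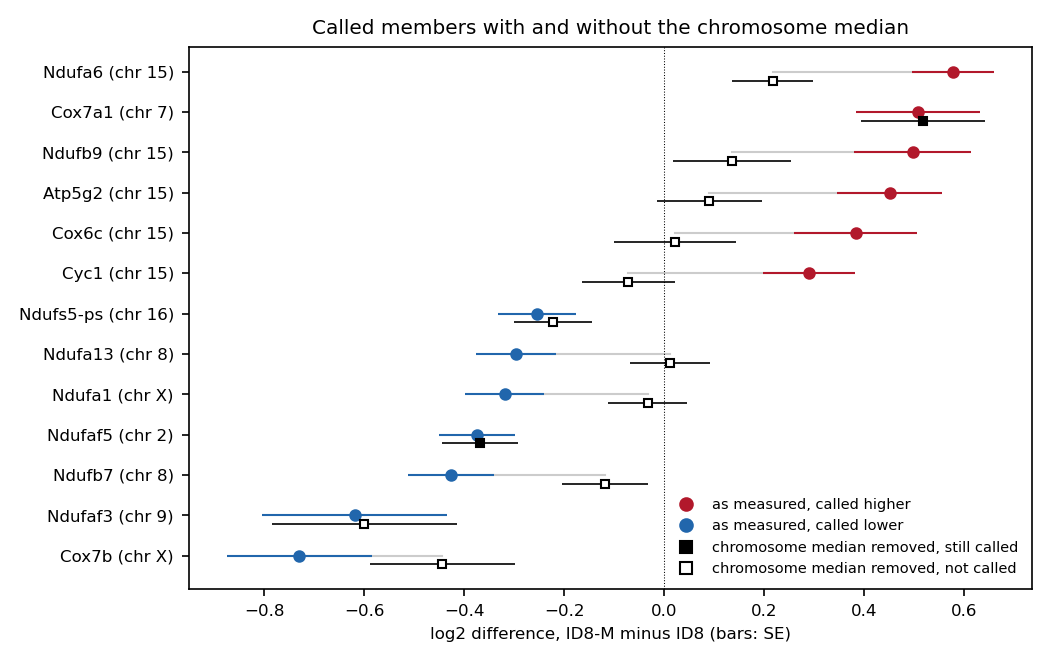
Difference of log2 intensity of the 13 called members as measured (coloured circles) and after subtraction of their chromosome's median (squares, filled where still called), with SE bars. Cox7a1 and Ndufaf5 kept their calls, and the members on chromosome 15 moved towards 0.

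Promoters of the respiratory chain are known for sites of the factors NRF1, GABP of the ETS family and YY1. RefSeq promoter windows of GRCm38.p6, from 250 bases before to 50 after a gene's start, were at hand for 73 of the 89 members. Windows of 5 called members are shown, a pair from chromosome 15 (Ndufa6, chr15:82354242-82354541, minus strand, and Atp5g2, chr15:102670998-102671297, minus strand), the members called after removal of the chromosome median (Ndufaf5, chr2:140170396-140170695, plus strand, and Cox7a1, chr7:30183921-30184220, plus strand), and the largest fall (Cox7b, chrX:106015450-106015749, plus strand). Capitals mark matches to the NRF1 core.
Ndufa6: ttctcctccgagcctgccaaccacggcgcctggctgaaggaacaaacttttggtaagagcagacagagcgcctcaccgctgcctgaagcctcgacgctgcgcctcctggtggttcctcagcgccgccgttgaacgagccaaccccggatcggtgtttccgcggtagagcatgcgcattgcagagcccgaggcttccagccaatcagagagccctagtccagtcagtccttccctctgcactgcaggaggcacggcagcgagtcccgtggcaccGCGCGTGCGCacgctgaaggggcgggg
Atp5g2: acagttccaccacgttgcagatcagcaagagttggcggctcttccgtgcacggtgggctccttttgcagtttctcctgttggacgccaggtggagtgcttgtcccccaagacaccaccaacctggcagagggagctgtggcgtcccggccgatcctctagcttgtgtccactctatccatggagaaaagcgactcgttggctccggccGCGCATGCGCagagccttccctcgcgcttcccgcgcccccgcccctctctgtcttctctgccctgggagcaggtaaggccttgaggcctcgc
Ndufaf5: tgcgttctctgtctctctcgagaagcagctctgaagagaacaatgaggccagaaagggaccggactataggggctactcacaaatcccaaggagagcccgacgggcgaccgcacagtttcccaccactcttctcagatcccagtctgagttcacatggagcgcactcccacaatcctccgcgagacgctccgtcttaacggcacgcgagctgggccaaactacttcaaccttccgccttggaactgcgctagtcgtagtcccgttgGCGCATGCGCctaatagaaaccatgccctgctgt
Cox7a1: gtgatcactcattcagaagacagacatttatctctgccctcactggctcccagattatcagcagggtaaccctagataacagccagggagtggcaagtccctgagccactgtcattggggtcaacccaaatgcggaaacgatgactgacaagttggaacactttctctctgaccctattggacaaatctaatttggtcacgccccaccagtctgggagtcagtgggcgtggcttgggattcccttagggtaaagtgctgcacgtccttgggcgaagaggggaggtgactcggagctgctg
Cox7b: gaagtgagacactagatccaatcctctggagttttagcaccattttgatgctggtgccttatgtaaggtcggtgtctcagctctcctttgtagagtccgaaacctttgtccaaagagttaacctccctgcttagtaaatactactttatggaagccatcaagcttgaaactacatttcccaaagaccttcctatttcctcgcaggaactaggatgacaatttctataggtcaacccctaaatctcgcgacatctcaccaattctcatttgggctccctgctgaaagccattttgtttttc

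The windows of Ndufa6, Atp5g2 and Ndufaf5 each held 1 match to the NRF1 core, which reads GCGC, any 2 bases and again GCGC, on both strands, and those of Cox7a1 and Cox7b held none. Across members, 27.4% of 73 had such a match in any of their windows, against 7% of all 27025 genes in the table. The ETS core CCGGAAG, searched on both strands, was found in 24.7% of members and 9.93% of all genes, and the YY1 core AAGATGGC, searched likewise, in 15.1% and 3.19%. No ETS or YY1 match occurs in the windows shown, so none overlaps another there. The windows shown are not a fair sample: of 9 called members with a window, these 3 alone held an NRF1 match. Ndufb7, the 1 called member with an ETS match, is not shown. Tested members with an NRF1 match had a median difference of −0.01 (19 genes, 3 called) and those without one −0.04 (49 genes, 6 called). For the ETS core these medians were 0.00 (18 genes, 1 called) and −0.04 (50 genes, 8 called), and for the YY1 core 0.09 (11 genes, 0 called) and −0.04 (57 genes, 9 called). Differences between these groups were not tested. These matches describe letters in the window and show no binding.

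Of 20 tested genes of mitochondrial biogenesis and mitochondrial DNA expression, 3 rose and 1 fell, 20% called against 30.8% of all tested genes. Nrf1, the nuclear respiratory factor whose core motif is given above, measured 10.13, 10.12 and 10.13 on the parental arrays and 9.74, 9.76 and 9.70 on the ID8-M arrays and fell by 0.39 ± 0.07 (limma adjusted p = 0.00557, and 0.065 with the mean of all tested probes). Tfam, which packages mitochondrial DNA and is needed to start its transcription, rose by 0.34 ± 0.09 (limma adjusted p = 0.0191), lost without parental array 1 or 2 or ID8-M array 2 or 3 (limma adjusted p up to 0.0722). Twnk, the helicase of mitochondrial DNA, rose by 0.40 ± 0.08 (limma adjusted p = 0.00604). The mitochondrially encoded subunits were not called: of 7 tested, 0 were called by limma (1 at an unadjusted p under 0.05), with a median of 0.12. ND4, a complex I subunit, differed by 0.20 (limma adjusted p = 0.115).

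Assembly factors outside the symbol rule gave 4 rises and 3 falls among 34 tested (20.6% called against 30.8% of all tested genes), with a median difference of 0.00. Cox14, a complex IV factor on chromosome 15, rose by 0.37 ± 0.08 (limma adjusted p = 0.00924) and kept 0.01 after its chromosome's median was removed. Higd2a, another complex IV factor, rose by 0.39 ± 0.09 (limma adjusted p = 0.013, and 0.0513 without ID8-M array 2). Cox11, which delivers copper to complex IV, fell by 0.35 ± 0.09 (limma adjusted p = 0.0205), lost without parental array 1 or 2 or ID8-M array 1 or 3 (up to 0.0686).

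Of 18 tested genes of pyruvate dehydrogenase and the citric acid cycle, 1 rose and 5 fell (33.3% called against 30.8% of all tested genes, median −0.15). Among the falls, Pdha1 and Pdk3 lie on chromosome X and went to −0.09 and 0.04 after its median was removed. Fh1 on chromosome 1 kept −0.30 but lost its call (limma adjusted p = 0.0551), while Pdk4 and Idh3a kept theirs. Pdk4, a kinase that switches pyruvate dehydrogenase off, measured 9.37, 9.64 and 9.37 on the parental arrays and 7.84, 7.67 and 7.57 on the ID8-M arrays and fell by 1.77 ± 0.11 (limma adjusted p = 1.34e-05), while Pdk1, a related kinase, rose by 0.87 ± 0.13 (limma adjusted p = 0.00217). Idh3a, the catalytic subunit of the NAD-dependent isocitrate dehydrogenase, measured 10.11, 10.08 and 9.94 on the parental arrays and 9.29, 9.30 and 9.22 on the ID8-M arrays and fell by 0.77 ± 0.08 (limma adjusted p = 0.0003). Of 21 tested genes of quinone inputs, coenzyme Q synthesis and ATP export, 2 rose and 1 fell (14.3% called against 30.8% of all tested genes). Sqor, which feeds electrons from sulfide into coenzyme Q, measured 6.85, 6.88 and 6.91 on the parental arrays and 8.27, 8.56 and 8.63 on the ID8-M arrays and rose by 1.61 ± 0.11, or 3.05-fold (limma adjusted p = 1.76e-05). The smallest rise of Sqor over 17 alternative settings was 0.97, under 2-fold, and it was called in all 17. Coq10a, a coenzyme Q binding protein, rose by 0.47 ± 0.10 (limma adjusted p = 0.0105). Dhodh, which feeds electrons from pyrimidine synthesis into coenzyme Q and lies on chromosome 8, fell by 0.38 ± 0.08 (limma adjusted p = 0.0109) and kept −0.07 after its chromosome's median was removed. In Pdk4, Pdk1, Idh3a, Sqor, Coq10a and Dhodh the arrays of the lines did not overlap, as for 48.4% of all tested genes. These genes were chosen by their calls, so the lack of overlap is no separate support.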

How the data were processed

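Per the labels, biotinylated cRNA of 6 RNA samples was hybridised to 1 Illumina bead chip. The deposited scanner table holds mean bead intensity per probe, neither background subtracted nor normalized per the file headers, with bead counts, the bead standard error as a signal in the same units, and detection p-values, all as deposited. A second deposited table of intensity values kept each array's rank order (correlation 1) and lay within 1.65% of plain quantile normalization. Its scale is linear, with medians from 143.36 to 143.41.

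Intensities were background corrected, quantile normalized and set on the log2 scale with neqc (limma 3.58.1, R 4.3.3, offset 16, background from the detection p-values). A probe was tested if either line had it detected (p under 0.05) on each of its 3 arrays, which left 16221 probes for 8933 genes, and the brightest tested probe stood for its gene. limma (lmFit, eBayes, two-sided) was fitted on all tested probes with Benjamini-Hochberg adjustment and 4 residual degrees of freedom. The fit was also run on simulated data, where recovery was required only for changes larger than any seen among the members. Symbols come from the platform annotation (34885 probes with 1 symbol, 18 with several, 10378 with none), and all 89 members matched RefSeq. The small number of arrays limits the precision.

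Members and lists were chosen with earlier results of these data known. Named genes are all called members, the member with the smallest adjusted p per complex, a set of isoforms and catalytic subunits (Cox8a and Ndufa4l2 were not analysed here), and up to 3 called genes per pathway list. Alternatives were background, normalization, filter, probe choice, array weights, prior, replicate block, chromosome median and left-out arrays. Same-numbered samples of both lines deviated with correlations of 0.04, −0.09 and 0.01, so the numbers were not taken to pair samples.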

Additional observations from a re-analysis of the deposited data

How the results depend on the processing

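Among 17 alternatives, the count of 13 called members (6 higher, 7 lower) was 22 with 14 lower without background correction. It was 20 with 14 lower from the deposited normalized table and 21 with 14 lower with a trended robust prior. With the mean of all tested probes it was 17 with 11 lower, 21.5% of members against 35.4% of all genes. Atp5a1 was among the calls gained there, and its mean includes the dim probe that entered the test only through the parental line. In the first 3 of these settings 27.8%, 25.3% and 26.6% of members were called, against 36.7%, 36.7% and 36.6% of all genes. With the chromosome median removed it was 2, with 1 higher and 1 lower, and the differences of Cyc1 and Ndufa13 reversed to −0.0714 and 0.0116. Leaving out 1 array gave 6 to 9 called members, 3 to 5 higher and 3 to 5 lower, and 11 to 16 called genes over the pathway lists. In these fits 22.8% to 25.6% of all tested genes were called. The replicate number as a block gave 9 called members, all among the 13, in a design where the numbers do not pair the samples. That is 11.4% of members, against 26.1% of all genes. Ndufaf5 was called in every alternative, and Ndufa6, Ndufb7 and Cox7b in all but removal of the chromosome median. Median differences moved by less than the spread between replicates in all 85 comparisons, and ran from −0.04 to 0.00 in complex I, −0.27 to −0.12 in II, −0.05 to 0.05 in III, −0.10 to −0.02 in IV and −0.06 to 0.03 in V, so the sign changed in I, III and V. Of 629 comparisons of named genes, 65 lost and 15 gained a call, and 17 changed sign, 15 of them of genes that were not called. Low signal limits Cox7b and Ndufaf3, whose sizes shrink without background correction. Dim genes that rose also varied in size: over the 17 alternatives the smallest difference was 0.31 for Cox7a1 and 0.97 for Sqor. A chip block could not be fitted, as all arrays lie on 1 chip. The cause of these shifts was not tested.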
